A study of Arabidopsis thaliana with 15 samples.

Results

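The 49 genes described here are nuclear loci of Arabidopsis thaliana that encode light-harvesting proteins, photosystem subunits, plastocyanin, protochlorophyllide reductases and Calvin cycle enzymes. They were chosen by a list of loci that was drawn up by function with earlier results of these data known, and all 49 were found among the 28775 genes counted and passed the filter that left 21716 genes for testing. The list held 4 genes of the photosystem I antenna (LHCA), 14 of the photosystem II antenna (LHCB), 10 of the photosystem I core, 8 of photosystem II, 2 of plastocyanin, 3 protochlorophyllide reductases and 8 Calvin cycle genes.

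RNA was sequenced from tissue labelled inflorescence meristem in 15 libraries of 6 groups, all labelled Ler and raised at 21 °C over 6 weeks. The groups without spray were wild type (n = 2), ap1-1 (n = 3) and pAP1>>miR STM/BP ap1-1 (n = 2), called the microRNA line below, in which the AP1 promoter drives a microRNA against STM and BP in plants that also carry ap1-1. Sprayed plants were wild type with DEX (n = 2) and 35s::STM-GR with MOCK (n = 3) or with DEX (n = 3), in which the 35S promoter drives STM fused to the hormone-binding part of the glucocorticoid receptor. MOCK was 0.02% Silwet L-77, DEX spray added 10 µM dexamethasone, and tissue was taken 5 h after the spray. The labels do not say whether a library pooled plants or how many lines stood behind a transgenic group, so the tests weigh differences only against the scatter among the libraries at hand. The allele is ap1-4 in the series' design text and ap1-1 in the sample labels, which are followed here.

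STM (SHOOT MERISTEMLESS) is a homeobox transcription factor that keeps meristem cells undifferentiated, and BP (KNAT1) is its close relative. Photosynthesis genes are largely off in the stem cells of a meristem and are switched on as leaves and floral organs turn green. LHCA and LHCB proteins bind chlorophyll and pass light energy to photosystem I and photosystem II, plastocyanin carries electrons between them, and the Calvin cycle fixes carbon dioxide through Rubisco, whose small subunit is encoded by the RBCS genes. In bulk tissue, fewer cells that express a gene and less RNA per cell cannot be told apart.

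Of the 49 genes, 6 passed the test in opposite directions in the silencing and the induction experiment described below, and the bases upstream of 4 of them are printed here because they hold letters searched for. These were LHCB1.4, LHCB2.2 and LHCB2.3, which were lower in the microRNA line and higher after STM-GR induction, and RBCS2B, which was the reverse. Each line gives the 250 bases before the gene's annotated start in RefSeq TAIR10.1, 5′ to 3′ on the gene's strand. Capitals mark, on either strand, CACGTG (the G-box), GATAAG or its reverse CTTATC (the I-box core), AAAATCT (a sequence known to be bound by the clock protein CCA1) and CCAATC.
LHCB1.4 (chr2:14524357-14524606, plus strand): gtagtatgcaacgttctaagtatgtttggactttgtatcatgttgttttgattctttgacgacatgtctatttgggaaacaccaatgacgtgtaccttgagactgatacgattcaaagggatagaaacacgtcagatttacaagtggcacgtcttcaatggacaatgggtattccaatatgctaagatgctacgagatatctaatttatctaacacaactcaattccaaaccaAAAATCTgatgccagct
LHCB2.2 (chr2:1800473-1800722, minus strand): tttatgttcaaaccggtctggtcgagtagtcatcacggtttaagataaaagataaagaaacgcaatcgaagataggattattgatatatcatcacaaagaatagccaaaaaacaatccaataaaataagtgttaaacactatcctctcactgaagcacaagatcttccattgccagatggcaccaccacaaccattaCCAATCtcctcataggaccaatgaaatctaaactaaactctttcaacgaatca
LHCB2.3 (chr3:10255656-10255905, plus strand): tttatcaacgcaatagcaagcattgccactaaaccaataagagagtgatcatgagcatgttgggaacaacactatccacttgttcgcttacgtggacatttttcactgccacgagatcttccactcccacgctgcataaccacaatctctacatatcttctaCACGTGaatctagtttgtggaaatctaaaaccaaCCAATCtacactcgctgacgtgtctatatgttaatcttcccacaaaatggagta
RBCS2B (chr5:15382072-15382321, minus strand): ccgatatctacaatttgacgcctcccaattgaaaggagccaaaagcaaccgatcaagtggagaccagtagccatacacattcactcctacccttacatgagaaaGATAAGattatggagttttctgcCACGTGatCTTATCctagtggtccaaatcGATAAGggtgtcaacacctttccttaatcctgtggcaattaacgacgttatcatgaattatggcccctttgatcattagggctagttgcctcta
RBCS1B and RBCS3B had none of these letters in the same window. CCAATC was found on either strand in 7 of 14 LHCB windows, 3 of 4 LHCA windows, 1 of 8 Calvin cycle windows and 0 of 18 windows of photosystem I core and photosystem II genes, against 10.2% of 27555 protein-coding genes. AAAATCT was found in 5 of 14 LHCB windows, 6 of 10 photosystem I core windows and 0 of 8 Calvin cycle windows, against 16.4% of all. GATAAG was found in 24.5% of the 49 windows and 12.3% of all, and CACGTG in 16.3% and 6.46%. A longer search for AAAATATCT, the evening element of clock-controlled genes, matched 2 of 49 windows, both of protochlorophyllide reductases, and 2.36% of all. The motifs do not contain each other. The windows depend on RefSeq's outermost start and come from the reference genome rather than from Ler.

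Several of these genes are near-identical neighbours. LHCB1.4 (chr2:14524607-14525918) lies beside LHCB1.5 (chr2:14522524-14523568), LHCB2.2 (chr2:1799234-1800472) lies near LHCB2.1 (chr2:1822990-1824480), and RBCS3B (chr5:15376988-15378642), RBCS2B (chr5:15380907-15382071) and RBCS1B (chr5:15383167-15385320) follow each other, all in TAIR10.1. Coding sequences were 86.8% to 96.4% identical within LHCB1, 84.4% to 96.6% within LHCB2 and 89.9% to 97.3% within RBCS. Reads that matched more than 1 copy could not be assigned, so the split of a family among its members is uncertain, while the family's sum is less so.

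The 49 genes took a large share of the RNA in every library. They made up 5.31% and 5.34% of gene counts in wild type, 4.93%, 5.64% and 6.79% in ap1-1, 5.53% and 4.94% in the microRNA line and 4.67% to 5.13% in the 8 sprayed libraries. Ranked by wild-type RPKM (gene counts scaled to library size and exon length), 36 of the 49 were among the 100 most abundant of 21599 genes and 43 among the top 500. RBCS1A ranked 1 with 4804 RPKM and LHCB1.3 ranked 2 with 3704 RPKM. PORA, the reductase that acts in dark-grown seedlings, was the least abundant, at rank 5785 with 23.0 RPKM. Libraries held 18717248 to 26539358 gene counts.

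The label of the tissue was held against marker genes. STM was at 46.2 and 47.4 CPM (gene counts scaled to library size with TMM factors, as are all CPM below) in wild type, and CLV1, KNAT1, WUS, LFY and AP1 were counted in every library. CLV3, the stem-cell peptide gene, was at 0 CPM in 11 of 15 libraries and at most 0.0939 CPM, and whether the annotation used in counting covered its transcript is not known, so it was not read as a sign of the tissue. Markers of mature pollen (VGD1, VGDH1 and PPME1) summed to 222 to 1629 CPM, so the libraries also held RNA of developed flowers. STM itself was lower in the microRNA line, at 31.9 and 31.1 CPM against 50.4, 44.1 and 49.3 in ap1-1, a log2 fold change of -0.61 ± 0.08 (SE; adjusted p = 0.000149). In 35s::STM-GR it was at 779 to 873 CPM, a count that includes the transgene. KNAT1 (BP) was at 64.5, 41.3 and 55.0 CPM in ap1-1 and 39.8 and 41.4 CPM in the microRNA line, where the groups overlapped and the gene was not called (-0.41 ± 0.14 (SE; adjusted p = 0.0701)).

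**Figure D1:**
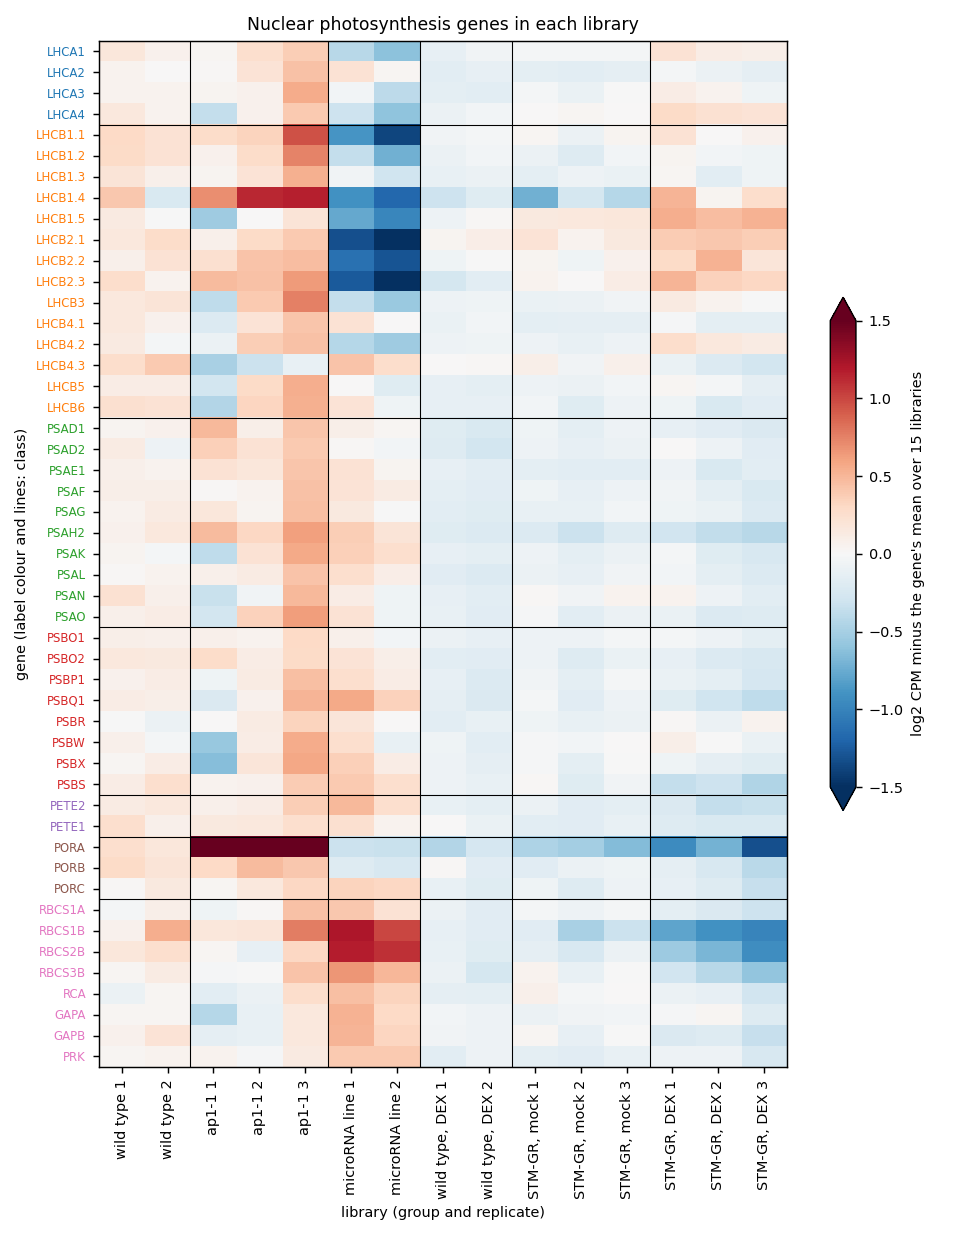
Level of each of the 49 genes (rows, grouped by class) in each of the 15 libraries (columns), as log2 CPM minus the gene's mean over the libraries. Colours saturate at the ends of the scale, which only values of LHCB2.1, LHCB2.3 and PORA pass. Blue LHCB1 and LHCB2 rows and red RBCS rows stand in the microRNA line, and PORA is deep red in ap1-1 alone.

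Silencing STM and BP was read by comparing the microRNA line with ap1-1, which share the ap1-1 allele. Among the antenna genes 10 of 14 LHCB and 3 of 4 LHCA genes were lower and 1 LHCB gene was higher. Of the Calvin cycle genes 7 of 8 were higher. When only these groups entered the fit, 6 of these 7 lost their calls, as did LHCA3, LHCA4, LHCB1.3, LHCB1.5 and LHCB3. Of the 18 photosystem I core and photosystem II genes 1 was called, PSAD2, and its call was lost in that fit too. With the replicate number added to the fit of all libraries as a block, LHCA3, LHCA4, LHCB1.3, LHCB3 and RCA lost their calls. Whether the classes differed from each other was not tested. By the quasi-likelihood test of edgeR, adjusted by Benjamini-Hochberg over all genes and used throughout, 16 of the 49 were lower, where 11.4% of all genes tested were, and 8 were higher, where 4.87% were. All microRNA libraries were below all ap1-1 libraries for 15 of the 49, where 21.7% of all genes were, and above for 8, where 17.2% were. Without microRNA line replicate 1 the counts were 13 lower and 2 higher, without replicate 2 they were 10 and 5, and without ap1-1 replicate 3 they were 12 and 11. The median log2 fold change was -0.10 over the 49 genes and -0.00 over all genes tested.

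**Figure D2:**
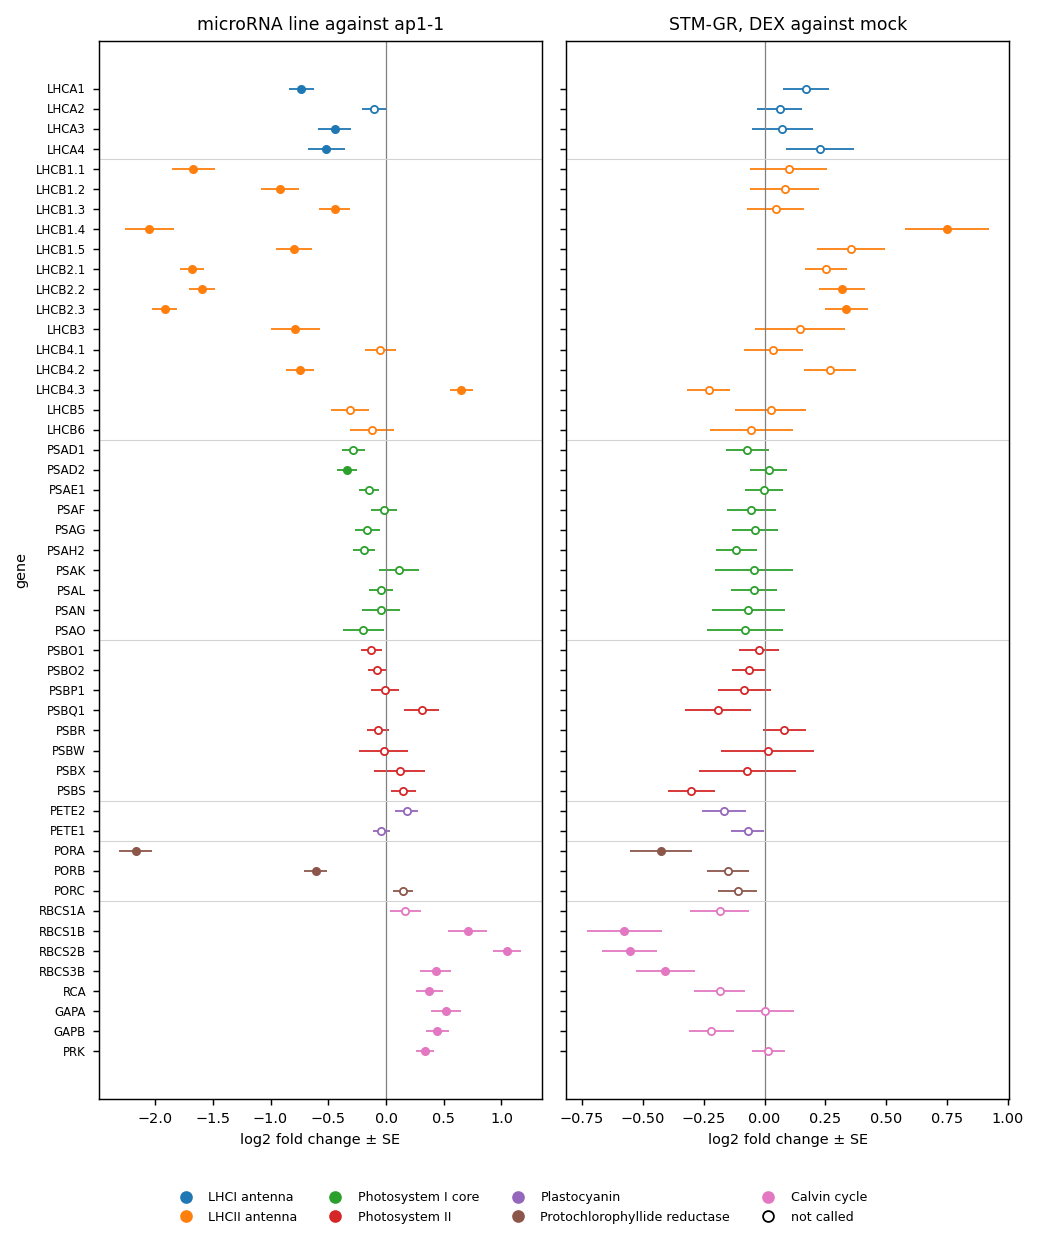
Log2 fold change of each gene (rows) with its standard error for the microRNA line against ap1-1 (left) and for DEX against MOCK in 35s::STM-GR (right), on different horizontal scales. Filled points passed the test at an adjusted p of 0.05, open points did not. LHCA and LHCB genes lie mostly left of 0 on the left and right of 0 on the right, and the RBCS genes called lie on the opposite sides.

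LHCB2, which encodes part of the main light-harvesting trimer of photosystem II, fell most evenly. LHCB2.3 (AT3G27690) was at 219, 214 and 245 CPM in ap1-1 and 65.8 and 54.1 CPM in the microRNA line. LHCB2.1 (AT2G05100) was at 432, 499 and 537 and then 164 and 140.2 CPM, and LHCB2.2 (AT2G05070) at 583, 663 and 681 and then 226 and 201 CPM. Every microRNA library was below every other library of the study for all 3 genes, the wild type included. The log2 fold changes were -1.92 ± 0.11 (SE; adjusted p = 1.52e-07), -1.68 ± 0.10 (SE; adjusted p = 3.59e-07) and -1.59 ± 0.11 (SE; adjusted p = 1.15e-06), which are 3.01-fold to 3.77-fold falls. Their shares of the LHCB2 sum moved little, so the 3 copies fell together. LHCB2.2 held 50.2% of that sum in the microRNA line, 47.3% in ap1-1 and 45.5% in wild type.

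LHCB1, the most abundant antenna family and the partner of LHCB2 in the trimer, fell unevenly. LHCB1.4 (AT2G34430) was at 408, 548 and 564 CPM in ap1-1 and 134 and 111 CPM in the microRNA line, a fall of 4.14-fold (log2 -2.05 ± 0.21 (SE; adjusted p = 1.49e-05)). LHCB1.1 (AT1G29920) was at 1159, 1210.1 and 1865 and 519 and 369 CPM, with a log2 fold change of -1.67 ± 0.19 (SE; adjusted p = 2.84e-05). LHCB1.3 (AT1G29930), the most abundant copy, was at 4256, 4786 and 5990.5 and 4005 and 3368 CPM, with -0.44 ± 0.13 (SE; adjusted p = 0.0345). The groups did not overlap for any of these, though LHCB1.3 came close and lost its call without ap1-1 replicate 3 or microRNA line replicate 2. LHCB1.2 and LHCB1.5 also fell, by 0.92 and 0.80 on the log2 scale, and LHCB1.5 lost its call without microRNA line replicate 2. Within the LHCB1 sum, LHCB1.3 held 53.1% in the microRNA line and 42.6% in ap1-1, and LHCB1.1 held 6.35% and 11.9%.

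The remaining photosystem II antenna genes, LHCB3, a further protein of the trimers, and LHCB4 to LHCB6, the linker proteins between trimer and core, gave mixed results. LHCB4.2 fell by 0.74 on the log2 scale (adjusted p = 0.000648). LHCB3 fell by 0.78 (adjusted p = 0.0205) but its groups overlapped, and the call was lost without ap1-1 replicate 3 or without either microRNA library. LHCB4.3 (AT2G40100), a divergent copy only 65.2% and 66.5% identical to the others of its family, was the one antenna gene that rose, from 84.1, 93.5 and 108 to 158 and 141 CPM (log2 0.65 ± 0.10 (SE; adjusted p = 0.000302)). Its mean was 149.7 CPM in the microRNA line and 148.0 CPM in wild type (log2 0.02, adjusted p = 0.928). Of these groups ap1-1 was therefore the low one. LHCB4.1, LHCB5 and LHCB6 were not called, at -0.05, -0.31 and -0.12. In all, 10 of 14 photosystem II antenna genes were lower and 1 was higher, with a median of -0.79.

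In the photosystem I antenna, 3 of 4 genes were lower. LHCA1 (AT3G54890) was at 1545, 1798 and 1963 CPM in ap1-1 and 1136 and 992 CPM in the microRNA line, with no overlap and a log2 fold change of -0.73 ± 0.11 (SE; adjusted p = 0.000216). LHCA3 and LHCA4 fell by 0.44 and 0.52, but both lost their calls without ap1-1 replicate 3 or microRNA line replicate 2, LHCA4 also without ap1-1 replicate 2 or microRNA line replicate 1, and the LHCA4 groups overlapped. LHCA2 was not called, at -0.10 (adjusted p = 0.57).

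The photosystems' other subunits moved little. Of 10 photosystem I core genes 1 was called by edgeR, PSAD2, a docking subunit for ferredoxin, which fell by 0.34 (adjusted p = 0.0128), did not overlap and lost the call without either microRNA library. DESeq2 called 2 of the 10 lower, PSAD2 and PSAD1 (-0.28, DESeq2 adjusted p = 0.0279), and 9 of the 10 edgeR values were below 0. None of the 8 photosystem II genes was called by edgeR, and none had an unadjusted p under 0.05. DESeq2 gave the same count of 0 for these 8. Their log2 fold changes ran from -0.13 to 0.31, which does not show that they were the same in both groups. They include PSBO1 and PSBO2 of the oxygen-evolving complex and PSBS, which triggers the release of excess light as heat. Plastocyanin gave 0.18 for PETE2 and -0.04 for PETE1, neither called.

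Protochlorophyllide reductases, which catalyse the light-dependent step of chlorophyll synthesis, fell in 2 of 3 cases. PORA (AT5G54190) was at 39.4 and 36.9 CPM in wild type, 103, 130.4 and 121 in ap1-1 and 26.4 and 26.1 in the microRNA line. The high group was therefore ap1-1, above every other library of the study. PORA was higher in ap1-1 than in wild type by 1.63 ± 0.14 (SE; adjusted p = 7.82e-06) on the log2 scale and lower in the microRNA line than in ap1-1 by 4.5-fold (log2 -2.17 ± 0.15 (SE; adjusted p = 7.39e-07)). PORB, the main form in these libraries, was at 1136, 1288 and 1229 CPM in ap1-1 and 813 and 784 CPM in the microRNA line (-0.61 ± 0.10 (SE; adjusted p = 0.000514)). PORC was not called, at 0.15.

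Calvin cycle genes went the other way, with 7 of 8 higher and a median of 0.44. RBCS2B (AT5G38420) was at 665, 598 and 805 CPM in ap1-1 and 1467 and 1388 CPM in the microRNA line, a 2.07-fold rise (1.05 ± 0.12 (SE; adjusted p = 3.69e-05)). RBCS1B (AT5G38430) was at 274, 278 and 417 and 565 and 490.2 CPM (0.71 ± 0.17 (SE; adjusted p = 0.00999)). RBCS3B (AT5G38410) was at 1748, 1760.5 and 2377 and 2795 and 2498 CPM (0.43 ± 0.13 (SE; adjusted p = 0.0386)). Both microRNA libraries were above all 3 ap1-1 libraries for each of these, and for RBCS2B above every library of the study by a wide margin. RBCS1A, the most abundant RBCS gene, was not called, at 5707, 6059.9 and 8069 and 7887 and 6965 CPM (0.17 ± 0.13 (SE; adjusted p = 0.457)). Its share of the RBCS sum was 61.7% in the microRNA line, 68.9% in ap1-1 and 67.6% in wild type, while the RBCS2B share was 11.9%, 7.23% and 8.38%.

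GAPA and GAPB, the subunits of the chloroplast glyceraldehyde-3-phosphate dehydrogenase, rose by 0.52 and 0.44, RCA (Rubisco activase) by 0.38 and PRK (phosphoribulokinase) by 0.34. Of the 7 Calvin cycle calls only that of RBCS2B held under every alternative. The other 6 were lost when only these groups entered the fit and without microRNA line replicate 1, RBCS3B, RCA and PRK also without microRNA line replicate 2, and RBCS3B and RCA also without ap1-1 replicate 1 or 2. RCA was also lost with the replicate block. Every alternative kept the sign of all 7.

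**Figure D3:**
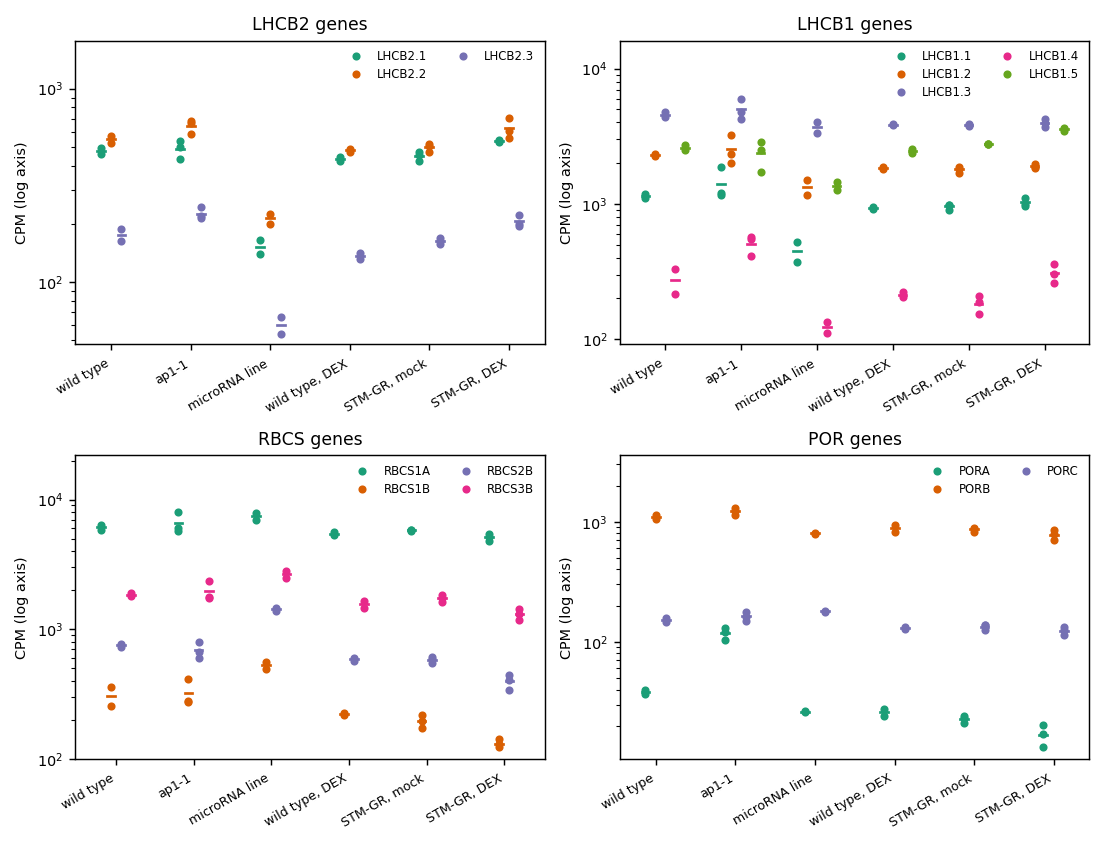
CPM on a log axis of the LHCB2, LHCB1, RBCS and POR genes in the 6 groups, with 1 point per library and a short line at the group mean. All 3 LHCB2 genes are lowest in the microRNA line, the minor RBCS genes are highest there and lowest in DEX-sprayed STM-GR, and PORA stands out in ap1-1.

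The balance of the classes also differed between the groups. The 14 photosystem II antenna genes summed to 15242, 19519.7 and 24063 CPM in ap1-1 and 13584 and 11451 CPM in the microRNA line. The 8 Calvin cycle genes summed to 11894, 12453 and 16269 and 18249 and 16359 CPM. The ratio of the first sum to the second was 0.744 and 0.700 in the microRNA line, 1.28, 1.57 and 1.48 in ap1-1 and 1.49 and 1.31 in wild type. It was lower in the microRNA line than in any other library, and ap1-1 replicate 3, high in both sums, was not apart from its group in the ratio. The ratio was 1.29 and 1.39 in wild type with DEX, 1.26, 1.32 and 1.3 in 35s::STM-GR with MOCK and 1.64, 1.58 and 1.75 with DEX, so the induced libraries were above all others. These ratios were formed after the members' values were known and are given without a test.

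**Figure D4:**
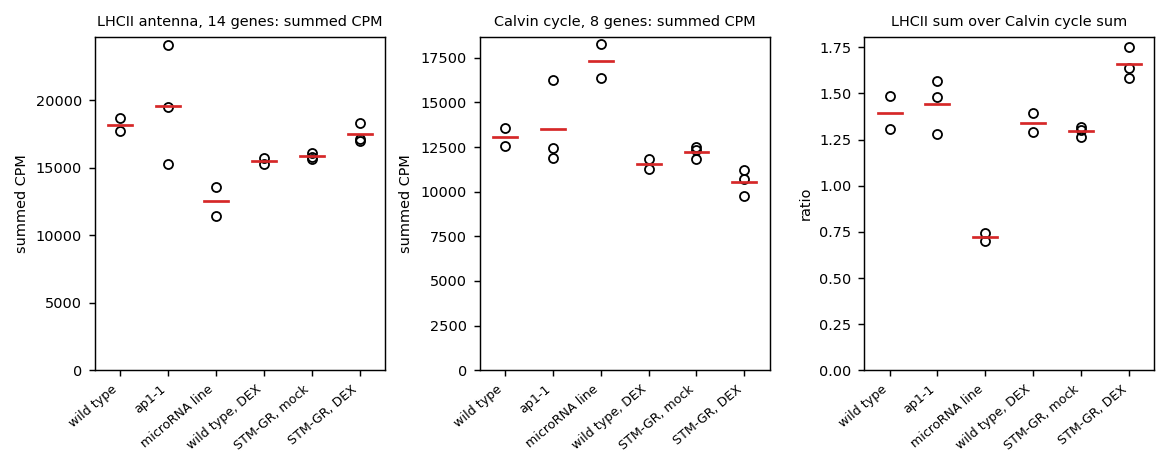
Summed CPM of the 14 photosystem II antenna genes (left), of the 8 Calvin cycle genes (middle) and their ratio (right) per library, with the group mean as a red line. The ratio lies between 0.700 and 0.744 in the microRNA line and between 1.58 and 1.75 in DEX-sprayed STM-GR.

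Markers of other tissues moved with silencing too. Of 7 inflorescence meristem markers tested, STM, WUS and TFL1 fell and AP1 rose, and with induction CLV1, KNAT1, LFY and AP1 rose. The 3 mature pollen markers all fell, and their sum was 222 to 227 CPM in the microRNA line against 772 to 1003 in ap1-1 and 846 to 1629 in the other libraries. Of 5 carpel and ovule markers (SHP1, SHP2, STK, CRC and TT16) 3 fell, and the sum was 76.5 to 80.5 CPM against 107 to 129.9 in ap1-1. None of 8 tapetum markers and none of 3 secondary wall markers was called by edgeR, though 4 and 0 had an unadjusted p under 0.05, and DESeq2 called 0 of either. Of 3 leaf myrosin and guard cell markers 1 rose. Of 4 sugar starvation genes 1 fell. It was ASN1, an asparagine synthetase gene induced by darkness and low sugar, at 132, 77.9 and 119.6 CPM in ap1-1 and 9.05 and 8.33 CPM in the microRNA line (-3.66 ± 0.20 (SE; adjusted p = 1.52e-07)). The part of any of these in the changes of the photosynthesis genes was not tested.

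The ap1-1 mutant was compared with wild type to see what the shared background did. Of the 49 genes 5 were higher, against 5.42% of all genes tested, and 1 was lower, against 5.19%. The groups did not overlap for 11 that were above wild type, where 17.1% of all genes were, and 1 below, where 15.2% were. Besides PORA, the higher ones were LHCB1.4 (0.89 ± 0.20 (SE; adjusted p = 0.0111)), LHCB2.3 (0.36 ± 0.10 (SE; adjusted p = 0.031)), PSAH2 (0.36) and PSAD2 (0.29), both photosystem I subunits, and the lower one was LHCB4.3 (-0.64 ± 0.10 (SE; adjusted p = 0.00103)). LHCB1.4 was at 332 and 215 CPM in wild type, so its wild-type libraries differed from each other. Its call was lost without wild-type replicate 2, as were those of LHCB2.3, PSAD2 and PSAH2. LHCB2.3 was also lost without ap1-1 replicate 3, PSAD2 without ap1-1 replicate 1 or 3, and PSAH2 without wild-type replicate 1. Without ap1-1 replicate 1, 8 genes were higher. With only these groups in the fit PORA alone was called. A gene that differed one way here and the other way with silencing shares the ap1-1 libraries between the comparisons, so the microRNA line was also set against wild type.

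Against wild type, the microRNA line had 13 of the 49 genes lower, where 16.8% of all genes tested were, and 5 higher, where 12.1% were. Both libraries were below both wild-type libraries for 17, where 32.7% of all genes were, and above for 18, where 34.8% were. Without microRNA line replicate 2 the counts were 8 lower and 3 higher, without replicate 1 they were 11 and 2, without wild-type replicate 1 they were 9 and 2, and without wild-type replicate 2 they were 12 and 3. The lower ones were 9 LHCB genes, LHCA1, LHCA4, PORA and PORB, and the higher ones were RBCS1B, RBCS2B, RBCS3B, RCA and PRK. LHCB2.1 gave -1.65 ± 0.11 (SE; adjusted p = 3.42e-07), LHCB2.3 -1.55 ± 0.11 (SE; adjusted p = 5.63e-07), and LHCB1.4 -1.16 ± 0.22 (SE; adjusted p = 0.000948). RBCS2B gave 0.92 ± 0.14 (SE; adjusted p = 0.000164). PORA was lower by 0.54, a smaller size than against ap1-1. This comparison differs in the ap1-1 allele as well as the microRNA.

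Induction of STM-GR was read from DEX against MOCK in 35s::STM-GR, 5 h after the spray, in libraries that shared none with the silencing comparison. Changes were smaller: 3 of the 49 genes were higher, against 5.56% of all genes tested, and 4 were lower, against 7.15%. All DEX libraries were above all MOCK libraries for 9 of the 49, where 19.9% of all genes were, and below for 12, where 20.9% were. These shares lie near those of all genes, and the median was -0.04 over the 49 genes and 0.01 over all genes.

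The higher genes were all photosystem II antenna genes. LHCB1.4 was at 152, 209 and 186 CPM with MOCK and 359, 259 and 302 CPM with DEX (0.75 ± 0.17 (SE; adjusted p = 0.0108)). LHCB2.3 was at 163, 158 and 169.9 and 223, 201 and 195 CPM (0.34 ± 0.09 (SE; adjusted p = 0.0215)), and LHCB2.2 at 508, 472 and 517 and 603, 707 and 558 CPM (0.32 ± 0.09 (SE; adjusted p = 0.0382)). All DEX libraries were above all MOCK libraries for each of these. LHCB1.5 and LHCB2.1 did not overlap either, at 2751, 2780.2 and 2792 against 3638, 3441 and 3569 CPM and at 472, 425 and 454 against 534, 544 and 530.0 CPM, but missed the threshold by edgeR (adjusted p = 0.11 and 0.0738). DESeq2 called 4 of the 14 antenna genes higher, LHCB2.1 among them (0.24, DESeq2 adjusted p = 0.0425). The 14 antenna genes had a median of 0.12, with 12 above 0.

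The lower genes were the 3 minor RBCS genes and PORA, whose values in DEX-sprayed wild type are given with that comparison below. RBCS2B was at 594, 549.9 and 610.2 CPM with MOCK and 447, 406 and 341 CPM with DEX (-0.55 ± 0.11 (SE; adjusted p = 0.00444)). RBCS1B was at 218, 175 and 196 and 142, 131 and 123 CPM (-0.58 ± 0.16 (SE; adjusted p = 0.0249)), and RBCS3B at 1823, 1636 and 1755 and 1441, 1317 and 1174 CPM (-0.41 ± 0.12 (SE; adjusted p = 0.0382)). Every DEX library was below every MOCK library for these 3, and RBCS2B was lower there than in any other group. PORA was at 24.0, 23.1 and 21.0 and 17.2, 20.2 and 13.2 CPM (-0.42 ± 0.13 (SE; adjusted p = 0.0415)), low in both. RBCS1A did not overlap but was not called (-0.18 ± 0.12 (SE; adjusted p = 0.362)), and its share of the RBCS sum was 69.7% with MOCK and 73.6% with DEX.

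No gene of the photosystem I core, photosystem II, plastocyanin or the photosystem I antenna was called with induction by edgeR. Of these 24 genes 1 had an unadjusted p under 0.05, PSBS (-0.30 ± 0.10 (SE; adjusted p = 0.054)), which DESeq2 called lower. Of the 7 calls only that of RBCS2B held under every alternative. LHCB1.4 was lost without MOCK replicate 1 or DEX replicate 1, and RBCS1B and RBCS3B without MOCK replicate 1 or 3 or DEX replicate 2 or 3. LHCB2.2 and LHCB2.3 were lost without any 1 MOCK library or DEX replicate 1 or 2, and PORA without any 1 MOCK library or DEX replicate 1 or 3. LHCB2.2 was also lost with the replicate block. When only the 2 groups compared entered the fit, 7 genes were higher and 7 lower, the 7 above among them, with LHCA4, LHCB1.5, LHCB2.1 and LHCB4.2 added to the higher and LHCB4.3, PSBS and GAPB to the lower.

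Silencing and induction were then set side by side. Of the 49 genes 7 were called in both, and 6 of these had opposite signs: LHCB1.4, LHCB2.2 and LHCB2.3 fell with silencing and rose with induction, and RBCS1B, RBCS2B and RBCS3B rose with silencing and fell with induction. PORA fell in both. Over all genes tested, 632 were called in both and 403 (63.8%) had opposite signs. Across the 49 genes the log2 fold changes had a Pearson r of -0.65 and a Spearman rho of -0.71, and across all 21716 genes -0.06 and -0.14. These are descriptions over genes, which share their libraries and, within families, their reads. The steepest antenna changes were larger with silencing than with induction, as LHCB2.3 shows with -1.92 against 0.34, and no test was made of that difference in size.

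**Figure D5:**
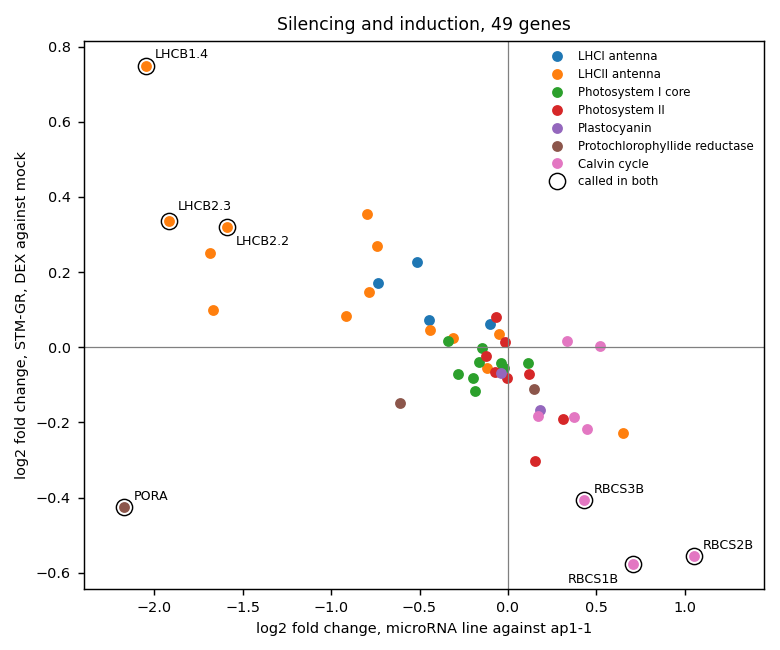
Log2 fold change of each of the 49 genes with silencing (horizontal, microRNA line against ap1-1) and with induction (vertical, DEX against MOCK in 35s::STM-GR), coloured by class. Ringed genes were called in both comparisons, 6 of them in opposite quadrants and PORA in the lower left.

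DEX spray itself was read in wild type, against unsprayed wild type, so the spray and dexamethasone cannot be told apart. None of the 49 genes was called by edgeR, where 0.484% of all genes tested were higher and 0.134% lower, but 16 had an unadjusted p under 0.05 and DESeq2 called 1, PSBO2, lower. All 49 log2 fold changes were below 0, with a median of -0.24 and 0.00 over all genes. In 47 of the 49 both DEX libraries were below both unsprayed ones, where 22.9% of all genes did so. RBCS2B was at 732 and 777 CPM unsprayed and 604 and 571 CPM with DEX, and LHCB1.3 at 4747 and 4366 and 3825 and 3893 CPM. The 2 sprayed wild-type libraries were thus slightly lower across the classes, at 4.67% and 4.68% of gene counts against 5.31% and 5.34%. All 49 values come from the same libraries, 2 per group, so their shared sign does not count as 49 separate results.

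Within DEX-sprayed plants, 35s::STM-GR was compared with wild type. Here 3 of the 49 genes were higher, against 4.92% of all genes tested, and 3 were lower, against 5.92%. The groups did not overlap for 13 that were above, where 25.1% of all genes were, and 10 below, where 25.3% were. The higher ones were LHCB2.3 (0.60 ± 0.10 (SE; adjusted p = 0.00138)), LHCB1.5 (0.54) and LHCB2.2 (0.37). The lower ones were RBCS1B (-0.75 ± 0.17 (SE; adjusted p = 0.0115)), RBCS2B (-0.56) and PORA (-0.62). LHCB2.3 was at 131 and 141 CPM in wild type with DEX, below all 3 induced libraries. Only its call held under every alternative: RBCS2B was lost without wild-type DEX replicate 1, PORA without replicate 2, RBCS1B, LHCB2.2 and LHCB1.5 without either, LHCB2.2 and LHCB1.5 also without DEX-sprayed 35s::STM-GR replicate 1 or 2, and LHCB1.5 also without replicate 3. LHCB2.2 and LHCB1.5 were also lost with the replicate block. This comparison shares its DEX-sprayed 35s::STM-GR libraries with the induction comparison.

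The response of 35s::STM-GR to DEX minus that of wild type passed the test for 1 of the 49 genes, LHCB2.3, in the positive direction, where 0.944% of all genes did, and for 0 in the negative direction, where 0.985% did. The wild-type response is against unsprayed plants and the 35s::STM-GR response against MOCK, so the contrast also holds the spray. The difference was 0.70 ± 0.14 (SE; adjusted p = 0.0162) for LHCB2.3 and 1.11 ± 0.27 (SE; adjusted p = 0.0526) for LHCB1.4, which missed the threshold. The LHCB2.3 call was lost without wild-type replicate 1 or either DEX-sprayed wild-type library, and without wild-type replicate 2 the count was 2. All 14 photosystem II antenna genes were above 0, with a median of 0.40, and the 8 Calvin cycle genes had a median of -0.05, with 2 above 0. The positive sign was not particular to that antenna, as 42 of the 49 genes were above 0, with a median of 0.19. Above 0 were 4 of 4 LHCA and 10 of 10 photosystem I core genes. So were 7 of 8 photosystem II, 2 of 2 plastocyanin and 3 of 3 protochlorophyllide reductase genes. The wild-type response subtracted here was below 0 for all 49. DESeq2 called 3 genes in the positive direction and none in the negative, and 8 of the 49 had an unadjusted p under 0.05 by edgeR. For RBCS2B, the DEX responses were -0.55 in 35s::STM-GR and -0.36 in wild type, and the difference of -0.19 was not called (adjusted p = 0.863). PORA, called lower with induction, was at 39.4 and 36.9 CPM in unsprayed wild type and 24.3 and 27.8 CPM with DEX, without overlap. Its DEX responses were -0.42 in 35s::STM-GR and -0.55 in wild type, where it was not called (adjusted p = 0.17), and the difference was 0.12 (adjusted p = 0.96). The differences for RBCS1B and RBCS3B were -0.11 and -0.16, neither called, so none of the 4 genes that fell with induction was shown to respond differently from wild type.

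Other genes of the same pathways were read from further lists. Of 12 other Calvin cycle genes 6 rose with silencing, among them SBPASE (0.43) and CP12-2, which encodes a regulatory linker protein (0.96), and 1 fell with induction. The median of the 12 was -0.19 with induction and -0.18 in wild type with DEX against no spray, where all 12 were below 0. Their difference of DEX responses was called for 0 of the 12 by edgeR or DESeq2. Of 7 electron transport and ATP synthase genes, FD2, which encodes the main leaf ferredoxin, rose with silencing (0.54 ± 0.15 (SE; adjusted p = 0.0224)), and DESeq2 called 4 higher. All 7 values were above 0 there and below 0 with induction, where edgeR called 0, DESeq2 called 1 lower and 2 had an unadjusted p under 0.05. In wild type with DEX against no spray all 7 were below 0 too, with a median of -0.20 against -0.13 with induction. The difference of DEX responses was called for 0 of the 7 by edgeR or DESeq2, with 5 above 0 and 2 below. Of 12 chlorophyll synthesis genes 3 fell with silencing: CAO, which makes the chlorophyll b of antenna proteins, CRD1, a cyclase subunit, and GUN4, which activates magnesium chelatase. CAO was at 89.0, 96.8 and 89.4 CPM in ap1-1, 59.0 and 61.9 in the microRNA line, 86.5, 85.9 and 85.8 in 35s::STM-GR with MOCK and 117, 122 and 111 with DEX. It fell with silencing (-0.60 ± 0.07 (SE; adjusted p = 2.87e-05)) and was the 1 gene of the list that rose with induction (0.44 ± 0.06 (SE; adjusted p = 0.000211)), where 4 fell. STN7, the kinase that phosphorylates the antenna trimer, fell with silencing (-0.26 ± 0.07 (SE; adjusted p = 0.0141)) and rose with induction (0.21 ± 0.06 (SE; adjusted p = 0.0261)), and was the only one of 12 other photosystem genes called in these directions. For the difference of DEX responses, edgeR called 0 of the 12 chlorophyll synthesis genes and 0 of the 12 other photosystem genes. DESeq2 called 1 higher and 0. The 10 listed loci with chloroplast identifiers summed to only 14.8 to 167 CPM, with 3 lower with silencing, 7 higher in ap1-1 than in wild type and the highest sum in ap1-1 replicate 3.

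Of 10 regulators of photosynthesis genes, 1 was lower with silencing and 4 were higher with induction. GLK2, a transcription factor that activates antenna and chlorophyll genes, was at 32.6, 25.9 and 36.6 CPM in ap1-1, 20.5 and 19.6 in the microRNA line, 19.5, 18.7 and 18.0 in 35s::STM-GR with MOCK and 38.1, 38.2 and 42.8 with DEX. It fell with silencing (-0.66 ± 0.17 (SE; adjusted p = 0.0151)) and rose with induction (1.09 ± 0.15 (SE; adjusted p = 0.000254)), and neither pair of groups overlapped. The DEX response of 35s::STM-GR minus that of wild type was called by edgeR for 0 of the 10 regulators. Of these 10, 4 had an unadjusted p under 0.05, the lowest edgeR adjusted p was 0.0553, and DESeq2 called 2 higher. GLK1, its close relative, was called in neither (0.12 and -0.20) but was higher in ap1-1 than in wild type (1.06 ± 0.13 (SE; adjusted p = 0.000219)), at 30.7 and 43.9 and 80.9, 68.7 and 84.2 CPM. SIG5, a nuclear-encoded sigma factor of the chloroplast, SIG1 and GNL, a GATA factor, were the other 3 that rose with induction (0.79, 0.29 and 1.03). In ap1-1 against wild type 6 of the 10 rose. In the microRNA line against wild type 7 of the 10 were higher and 0 lower, by edgeR and by DESeq2. The fall of GLK2 in the microRNA line was therefore called against ap1-1 but not against wild type.

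Antenna genes are known to follow the circadian clock, and the time of day of sampling was not given in the labels. Of 11 clock genes 6 fell with silencing and 5 rose with induction, and in these comparisons none was called the other way by edgeR or DESeq2. The microRNA line against wild type had 7 of the 11 lower and 2 higher, by edgeR and by DESeq2. CCA1, a morning clock factor that binds LHCB1 promoters, was at 7.11, 8.10 and 7.86 CPM in ap1-1 and 1.70 and 2.42 CPM in the microRNA line (-1.88 ± 0.17 (SE; adjusted p = 6.76e-06)). It was at 11.9, 10.9 and 11.1 CPM with MOCK and 16.1, 19.0 and 19.1 CPM with DEX in 35s::STM-GR (0.68 ± 0.12 (SE; adjusted p = 0.00143)). PRR9, PRR5 and RVE8 also fell with silencing and rose with induction. LHY and PRR7 fell with silencing alone among the calls, and RVE1 rose with induction. In wild type, DEX spray against none called 0 of the 11 by edgeR, with 3 at an unadjusted p under 0.05 and 1 called by DESeq2, and CCA1 was at 9.51 and 9.55 and 10.9 and 14 CPM. There 9 of the 11 were above 0. The DEX response of 35s::STM-GR minus that of wild type was called for 0 of the 11, by edgeR or DESeq2. All 11 differences were above 0, with a lowest edgeR adjusted p of 0.502. None of the rises with induction was therefore shown to differ from the response of wild type. The part of the clock genes or of sampling time in the changes of the 49 genes was not tested.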

How the data were processed

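Gene counts of 15 libraries were used. The authors deposited 1 table of raw counts per library, and the submitters' processing notes name TopHat2 2.0.6, HTSeq 0.62 and the TAIR10 build. Strand setting and handling of duplicates are not given in the sources used here, and reads matching several near-identical genes went uncounted. A table of normalized values was not used. The 5 entries naming no gene stayed out of library sizes and tests.

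All libraries were fitted together in edgeR 4.0.16 (R 4.3.3) with 6 groups, TMM factors, the filterByExpr filter with a minimum count of 10 and quasi-likelihood tests. P-values were adjusted by Benjamini-Hochberg over 21716 genes, and calls were made at 0.05. Differences are log2 fold changes of these counts, and levels are CPM or, per exon length from RefSeq TAIR10.1, RPKM. Gene names followed a fixed list, matched to RefSeq for 147 of 157 genes, where LHCB1.1 to LHCB1.5 are CAB2, CAB3, CAB1, LHB1B1 and LHB1B2. Alternatives were DESeq2 1.42.0 and its size factors, no filter, totals without the 49 genes, only the groups compared, a replicate block and leaving out each library. Named genes were all 49 members where called and the listed pathway genes. The members and lists were chosen with earlier results of these data known. Replicates differed by more than sampling noise, with a chi-square per gene of 3.15 to 32.1.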

Additional observations from a re-analysis of the deposited data

Results flagged for a closer look

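The responses to DEX spray of 35s::STM-GR and of wild type differed, by a test of the difference itself, for LHCB2.3 among the 49 genes. The difference was 0.70 on the log2 scale (edgeR adjusted p = 0.0162), and it lost the threshold without wild-type replicate 1 or either DEX-sprayed wild-type library. Among the further listed genes, AP1, a floral identity gene, differed by 0.77 (edgeR adjusted p = 0.000568). The wild-type reference was unsprayed and the 35s::STM-GR reference was sprayed with MOCK.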

How the results depend on the processing

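None of the 62 calls of the 49 genes changed sign under the alternatives run, and 24 held under all of them. The medians over all genes lie near 0 and changed sign in 6 of 7 comparisons under at least 1 alternative, for silencing to 0.01 with only the groups compared and for induction to -0.00 without DEX replicate 3. With only the groups compared in the fit, silencing had 2 genes higher and 10 lower, ap1-1 against wild type 1 higher and 0 lower, induction 7 higher and 7 lower, DEX-sprayed 35s::STM-GR against wild type 7 higher and 6 lower, and the difference of DEX responses 9 higher. DESeq2 called 1 lower gene in wild type with DEX, 5 higher in DEX-sprayed 35s::STM-GR against wild type and 3 higher for the difference of responses, and no filter gave 2 for the last. Leaving out 1 library gave 2 to 11 higher and 10 to 19 lower for silencing, 1 to 8 and 1 to 2 for ap1-1, 2 to 3 and 8 to 12 for the microRNA line against wild type, 0 to 3 and 1 to 4 for induction, 0 and 0 for wild type with DEX, 1 to 2 and 1 to 3 for DEX-sprayed 35s::STM-GR against wild type, and 0 to 2 and 0 for the difference. The cause of these shifts was not tested, beyond the fewer libraries in each fit.

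Deviations of same-numbered libraries correlated at -0.13 to 0.03 for silencing and 0.01 to 0.08 for induction. Those of libraries with other numbers correlated at -0.15 to 0.15 and -0.07 to 0.03. In a group of 2 libraries the deviations mirror each other, so these few values cannot decide whether replicate numbers paired the samples. With the replicate block, silencing had 7 genes higher and 12 lower, induction 2 and 4, and DEX-sprayed 35s::STM-GR against wild type 1 higher. At this depth, counting error is small beside the spread of 2 or 3 libraries, which limits the tests.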
